A study of Mus musculus with 8 samples.

Results

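The expression of 9 genes was followed across all 8 arrays of a study of YAP and TAZ in the mouse intestinal epithelium. Of these, 8 are genes of B lymphocytes (Cd79a, Cd79b, Ms4a1, Cd22, Fcer2a, Pax5, Cr2 and Blk). The chromatin organiser Satb1 was added for its similar pattern. Each is represented by 1 probe set naming that gene alone, among 19938 genes measured. The 9 genes were chosen by their values on these same arrays, including the differences between siYAP/TAZ and siGFP, so those differences are given as a description with no test.

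RNA came from cells isolated from the small intestinal epithelium of male ICR mice, 8 weeks old, 4 days after nucleic acid had been introduced into the intestine in vivo. There were 3 siYAP/TAZ arrays (siRNAs against YAP and TAZ), with 3 siGFP arrays (control siRNA) as their reference. A single shYAP/TAZ array (plasmids expressing shRNAs against YAP and TAZ) had a single shLacZ array (control shRNA plasmid) as its reference. The labels name a control array for each array labelled as a knockdown, which gives 3 siRNA pairs and 1 shRNA pair. They do not tie arrays to separate mice, so the spread between arrays may be technical. All isolates received a transfection, and no untreated isolate is among them. YAP and TAZ are coactivators restrained by the Hippo pathway, and the study asked what their knockdown does to the epithelium. Neither targeted gene was lower in siYAP/TAZ beyond the spread between arrays. The log2 difference was -0.12 for Yap1 and -0.28 for Wwtr1, which encodes TAZ (limma, adjusted p = 1 for both). In the shRNA pair it was -0.09 for Yap1 and 0.06 for Wwtr1. On each array Wwtr1 lay under the 95th percentile of olfactory receptor genes, a rough background described below. Its probe set may therefore report a knockdown poorly.

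B cells recognise antigen through a surface immunoglobulin that signals through the CD79A and CD79B chains. Coreceptors on the same membrane raise or lower that signal, and the transcription factor PAX5 keeps the cells committed to the B lineage. In the intestine, mature B cells are gathered in Peyer's patches and isolated lymphoid follicles beneath a specialised epithelium, while antibody-secreting plasma cells lie in the lamina propria. An isolate of epithelial cells can carry such cells along. In bulk RNA, fewer cells of a type and less RNA per cell cannot be told apart.

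Promoter sequences of the members are shown because the 8 B cell genes moved together across the arrays. RefSeq promoters (GRCm38.p6, 250 bases before to 50 bases after a transcript start) were matched for 6 of the 9 genes, at 12 starts. They were searched on both strands for the octamer bound by OCT factors (ATGCAAAT), for a core of the EBF site (CCCNNGGG) and for a core of the PU.1 site (GAGGAA). The octamer lay in 0 of the 12 members' promoters and in 1.74% of all 32851 promoters. The EBF core lay in 1 of 12, against 13.7% of all promoters, and the PU.1 core in 4 of 12, against 28.3%. The 2 sequences below are those of the B cell members with a match, in lower case with the match in capitals. The Cd79a match is to the PU.1 core on the opposite strand, with its first base at -140 relative to the transcript start. The Cd22 match is to the EBF core, with its first base at -48. Of the other 3 starts with a PU.1 match, all belonged to Satb1. The 12 starts are not independent, as Satb1 has 5 of them and Fcer2a 3. The windows of Satb1 starts 4 and 5 overlap, so the match at -71 of start 4 is also that at -201 of start 5. A match is a string of letters and not a shown binding site, and a missing match says only that these letters are not in the window.
Cd79a promoter, chr7:24897247-24897546, plus strand: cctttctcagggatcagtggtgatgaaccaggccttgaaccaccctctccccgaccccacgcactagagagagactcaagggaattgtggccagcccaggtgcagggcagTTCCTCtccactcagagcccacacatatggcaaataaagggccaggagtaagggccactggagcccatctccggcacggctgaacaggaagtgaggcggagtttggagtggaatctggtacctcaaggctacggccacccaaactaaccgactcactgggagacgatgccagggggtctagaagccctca
Cd22 promoter, chr7:30878979-30879278, minus strand: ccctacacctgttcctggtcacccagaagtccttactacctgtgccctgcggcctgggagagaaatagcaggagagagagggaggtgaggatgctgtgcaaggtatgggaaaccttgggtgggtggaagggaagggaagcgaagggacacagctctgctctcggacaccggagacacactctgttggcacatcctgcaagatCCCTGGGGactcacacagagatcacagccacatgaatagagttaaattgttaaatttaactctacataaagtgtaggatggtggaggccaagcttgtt

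The members were high in siYAP/TAZ 2 and siYAP/TAZ 3 and low in siYAP/TAZ 1, so the siYAP/TAZ group did not move as one. Their median normalised log2 intensity was 4.81, 7.83 and 6.94 in siYAP/TAZ 1, 2 and 3, against 4.86, 4.77 and 5.47 in siGFP 1, 2 and 3. It was 4.78 in shYAP/TAZ and 5.71 in shLacZ. The median of all genes lay between 6.47 and 6.52 on every array after normalisation. Every member was highest in siYAP/TAZ 2 (9 of 9), and siYAP/TAZ 3 came second for 8 of 9. For Cd79a, shLacZ came second instead, at 5.98 against 5.91 in siYAP/TAZ 3. shLacZ and siGFP 3 each took rank 3 or 4 for 8 members.

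**Figure D1:**
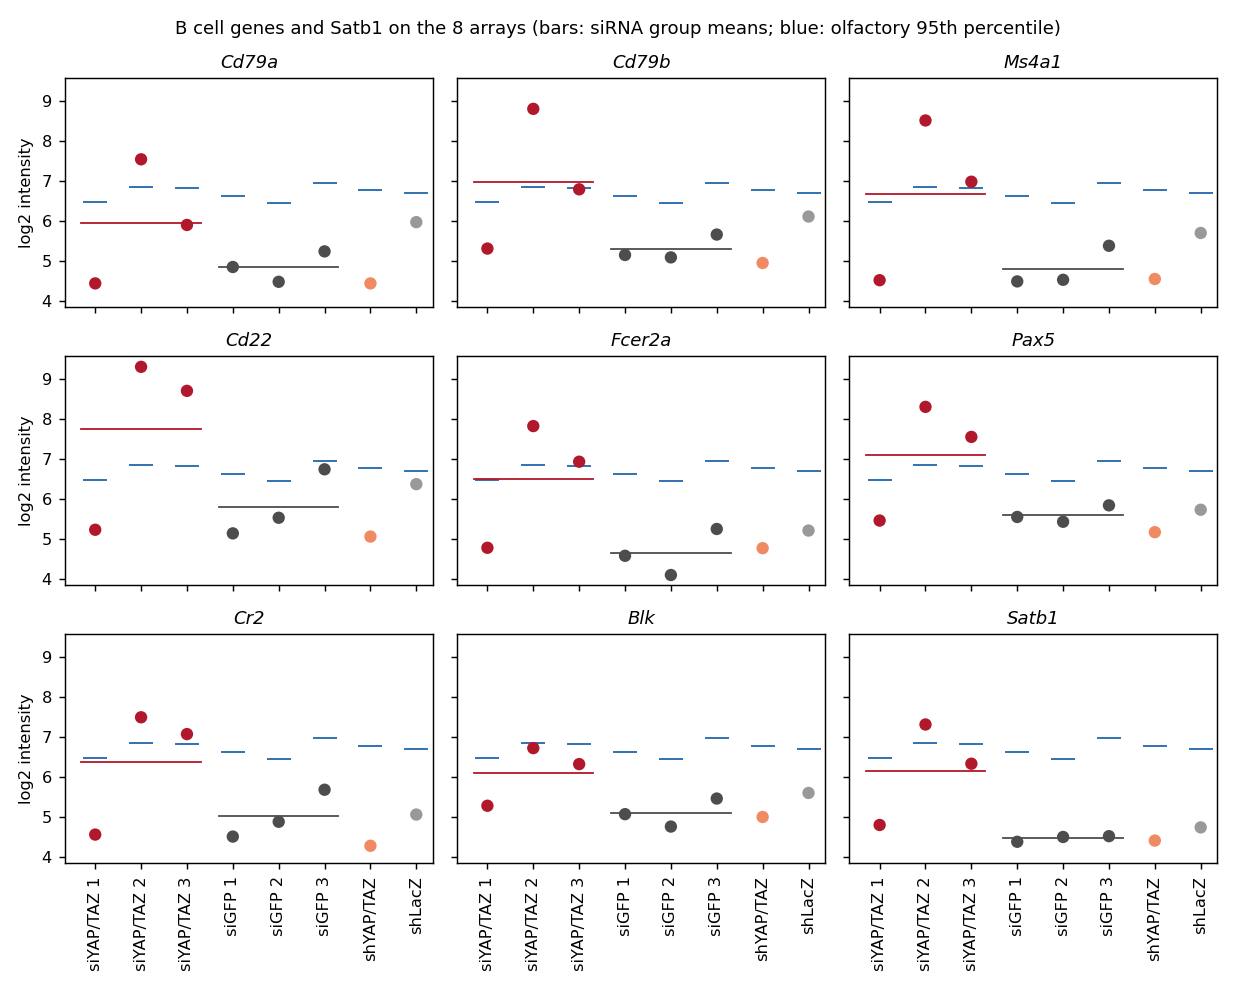
Normalised log2 intensity (vertical axis) of the 9 members on the 8 arrays (horizontal axis), with bars at the means of siYAP/TAZ and siGFP and blue ticks at the 95th percentile of olfactory receptor genes on the same array. All 9 genes are highest in siYAP/TAZ 2, and the members stand above the blue tick on siYAP/TAZ 2 (8 of 9) and siYAP/TAZ 3 (5 of 9) and on no other array.

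A rough background was taken from 1016 olfactory receptor genes, which are specialised for the nose. Their 95th percentile lay between 6.45 and 6.97 on the 8 arrays, and their median between 5.22 and 5.36. In siYAP/TAZ 2, 8 of the 9 members stood above that 95th percentile, and in siYAP/TAZ 3, 5 did. On each of the other 6 arrays 0 of 9 stood above it, so differences among those arrays concern dim probe sets. Probe sets differ in how brightly they report, so a value under this line does not show that a gene was silent.

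Cd79a and Cd79b encode the 2 signalling chains of the B cell receptor. Cd79a had a normalised log2 intensity of 4.45, 7.55 and 5.91 in siYAP/TAZ, against 4.86, 4.49 and 5.25 in siGFP. It had 4.45 in shYAP/TAZ and 5.98 in shLacZ. The siRNA groups overlapped, because siYAP/TAZ 1 lay below all 3 siGFP arrays. Cd79b had 5.32, 8.81 and 6.80 in siYAP/TAZ, against 5.16, 5.10 and 5.67 in siGFP. It had 4.96 in shYAP/TAZ and 6.12 in shLacZ. Again 1 siYAP/TAZ array, the first, lay among the siGFP arrays. The group means were 5.97 ± 1.55 in siYAP/TAZ and 4.86 ± 0.38 in siGFP for Cd79a, and 6.97 ± 1.75 in siYAP/TAZ and 5.31 ± 0.31 in siGFP for Cd79b (SD, n = 3 each). The differences of 1.11 and 1.66 were smaller than the spread within siYAP/TAZ.

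Cr2 and Cd22 encode coreceptors of opposite effect. Cr2, the complement receptor CD21, lowers the threshold for B cell activation and is also carried by follicular dendritic cells. It had 4.57, 7.50 and 7.08 in siYAP/TAZ, against 4.52, 4.89 and 5.69 in siGFP, with 4.29 in shYAP/TAZ and 5.07 in shLacZ. Cd22, a sialic acid-binding lectin that dampens receptor signalling, had 5.24, 9.31 and 8.71 in siYAP/TAZ, against 5.15, 5.54 and 6.75 in siGFP. It had 5.07 in shYAP/TAZ and 6.38 in shLacZ. For both genes siYAP/TAZ 2 and 3 lay above every other array and siYAP/TAZ 1 lay within the siGFP range. Cd22 had the widest range of any member over the 8 arrays, 4.24 on the log2 scale, and its deposited intensity was 594 in siYAP/TAZ 2, against 40.5 in siGFP 2.

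Ms4a1 encodes CD20, a membrane protein of B cells that are not yet plasma cells, and Fcer2a encodes CD23, the low-affinity IgE receptor of follicular B cells. Ms4a1 had 4.53, 8.52 and 6.99 in siYAP/TAZ, against 4.50, 4.54 and 5.39 in siGFP, with 4.56 in shYAP/TAZ and 5.71 in shLacZ. The 4 arrays siYAP/TAZ 1, siGFP 1, siGFP 2 and shYAP/TAZ lay within 0.06 of each other for this gene. Fcer2a had 4.79, 7.83 and 6.94 in siYAP/TAZ, against 4.59, 4.11 and 5.26 in siGFP, with 4.78 in shYAP/TAZ and 5.22 in shLacZ. The siRNA groups of both genes overlapped through siYAP/TAZ 1 and siGFP 3. The mean differences were 1.87 for Ms4a1 and 1.87 for Fcer2a, with SDs of 2.01 and 1.56 in siYAP/TAZ and 0.50 and 0.58 in siGFP (n = 3 each).

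Blk encodes a Src-family kinase that acts directly below the receptor, and Pax5 the lineage factor. Blk had 5.29, 6.73 and 6.33 in siYAP/TAZ, against 5.08, 4.77 and 5.47 in siGFP, with 5.01 in shYAP/TAZ and 5.61 in shLacZ. Pax5 had 5.47, 8.31 and 7.56 in siYAP/TAZ, against 5.56, 5.44 and 5.85 in siGFP, with 5.18 in shYAP/TAZ and 5.74 in shLacZ. Blk moved least of the 9, with a range of 1.96 over the 8 arrays, but siYAP/TAZ 2 and 3 were again its highest arrays, with shLacZ and siGFP 3 next. Pax5 differed by 1.50 between the group means, with SDs of 1.47 in siYAP/TAZ and 0.21 in siGFP (n = 3 each).

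Satb1 encodes a protein that organises chromatin loops and is best known from developing T cells. It had 4.81, 7.32 and 6.34 in siYAP/TAZ, against 4.39, 4.51 and 4.53 in siGFP, with 4.42 in shYAP/TAZ and 4.75 in shLacZ. It was the 1 member of 9 whose siRNA groups did not overlap, all 3 siYAP/TAZ arrays lying above all 3 siGFP arrays. Among all genes 1.6% had that pattern. siYAP/TAZ 1 exceeded the highest siGFP array by a small step in a dim range, and the group means were 6.16 ± 1.27 in siYAP/TAZ and 4.48 ± 0.07 in siGFP (SD, n = 3 each).

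Within the 4 labelled pairs the members split by pair more than by gene. In siRNA pair 2, the log2 difference of siYAP/TAZ 2 minus siGFP 2 lay between 1.96 for Blk (3.9-fold) and 3.98 for Ms4a1 (15.8-fold). All 9 members were at least 2-fold higher in that pair, where 4.79% of all genes were. In siRNA pair 3 the differences lay between 0.66 for Cd79a and 1.95 for Cd22, with 7 of 9 at least 2-fold higher, against 2.16% of all genes. In siRNA pair 1 they lay between -0.40 for Cd79a and 0.42 for Satb1, with 0 of 9 at least 2-fold higher, against 2.02% of all genes. These shares stand beside counts for genes chosen on the same contrast. Each pair holds 1 array a side, so no pair has a replicate check, and over all genes arrays of the same number did not deviate together in every pair. All 9 members were under the olfactory 95th percentile in siGFP 2, so its folds may be compressed.

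In the shRNA pair the members lay on the other side of 0. The log2 difference of shYAP/TAZ minus shLacZ was -1.53 for Cd79a, -1.32 for Cd22, -1.16 for Cd79b and -1.15 for Ms4a1. These 4 of the 9 were at least 2-fold lower, where 2.76% of all genes were. The other members had -0.78 for Cr2, -0.59 for Blk, -0.56 for Pax5, -0.44 for Fcer2a and -0.33 for Satb1. Both shRNA arrays stayed under the olfactory 95th percentile for all 9 members, so the pair compares low values. Of the 9 members, 7 were higher in all 3 siRNA pairs and lower in the shRNA pair, a combination shown by 3.36% of all genes. The members were chosen on the siRNA contrast, so that share is no benchmark for the count. In siRNA pair 1 the step up was only 0.04 for Ms4a1, and both arrays were under the olfactory 95th percentile for all 9 members. The difference between the arms was not tested, because the shRNA arm has 1 array a group.

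**Figure D2:**
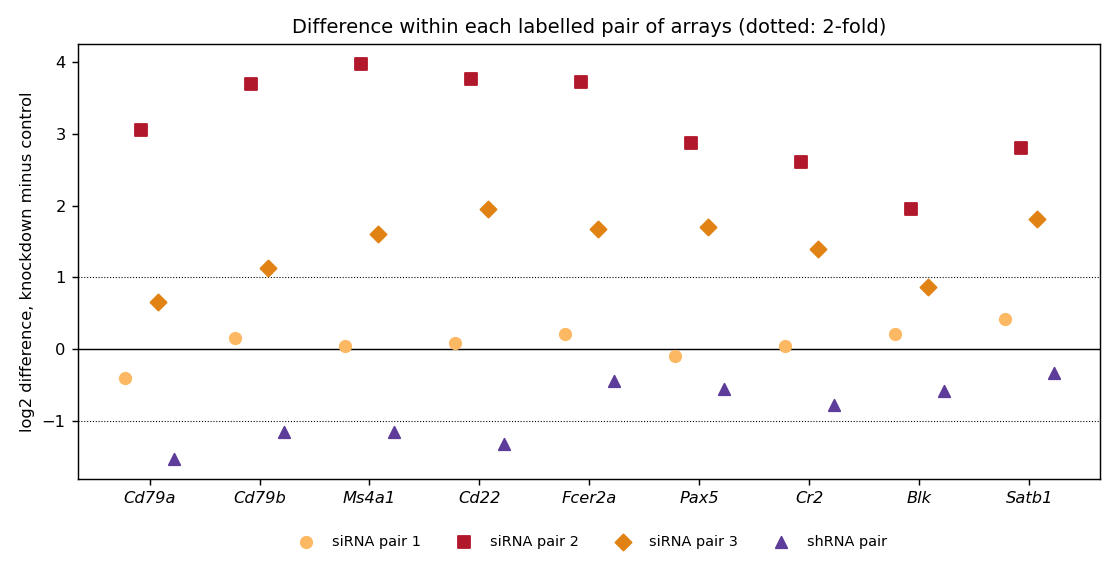
Log2 difference of the array labelled as a knockdown minus its control (vertical axis) for each member (horizontal axis), 1 point a pair, with dotted lines at a 2-fold difference. The points of siRNA pair 2 lie between 1.96 and 3.98, those of siRNA pair 1 between -0.40 and 0.42, and all 9 points of the shRNA pair lie below 0.

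Over all genes, limma called 0 of 19938 different between siYAP/TAZ and siGFP (0% at an adjusted p under 0.05), with 237 at an unadjusted p under 0.05. The members' median log2 difference was 1.66, and that of all genes was -0.024. Without siYAP/TAZ 2 the members' median was 0.90, and the single differences lay between 0.32 for Cd79a and 1.21 for Fcer2a. Without siYAP/TAZ 1 the median was 2.35, and limma called 11 genes higher and 2 lower.

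The B cell members differed unequally between the 2 arrays in which they were highest, as far as dim probe sets can show. Blk lay under the olfactory 95th percentile on both arrays, and Cd79a and Cd79b in siYAP/TAZ 3. As siYAP/TAZ 2 minus siYAP/TAZ 3, the log2 difference was 2.01 for Cd79b, 1.64 for Cd79a and 1.53 for Ms4a1. It was 0.42 for Cr2, 0.40 for Blk and 0.60 for Cd22. The 2 control arrays with intermediate levels split most of these genes in a similar way. Cd79a stood 0.74 lower in siGFP 3 than in shLacZ (-0.74 as siGFP 3 minus shLacZ), and Cd79b stood at -0.46. Cr2 stood at 0.62 and Cd22 at 0.37 in the same difference, while Blk, at -0.14, did not side with them. Ms4a1 stood at -0.32. Pax5 and Fcer2a, at 0.76 and 0.89 in the first difference, stood at 0.10 and 0.04 in the second. Cr2 and Cd22 were still higher in siYAP/TAZ 2 than in siYAP/TAZ 3. Relative to Cr2 and Cd22, the receptor chains were raised in siYAP/TAZ 2 against siYAP/TAZ 3 and in shLacZ against siGFP 3. Each of these is a single array, so the split has no error, and all members were under that percentile in siGFP 3 and shLacZ.

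Across the 8 arrays, Pearson's r between 2 B cell members lay between 0.863 and 0.994 over the 28 possible pairs of genes, with a median of 0.956. Without siYAP/TAZ 2 the median over 7 arrays was 0.922. The points share array, scaling and the choice of genes, so these are descriptions. Satb1 had r = 0.962 and Spearman's rho = 0.857 with the mean profile of the 8 B cell members. Among 5899 genes outside the list with an SD of at least 0.5 over the arrays, 15 had a higher r, which placed Satb1 at rank 16. Unnamed predicted genes, antigen receptor segments and olfactory and vomeronasal receptor genes were left out of this ranking. Satb1 was higher in shLacZ (4.75) than in the 3 siGFP arrays, but in siGFP 3 it lay only 0.08 above the mean of siGFP 1 and 2, where the B cell members lay between 0.35 (Pax5) and 1.41 (Cd22) above it.

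By the same measure the 10 genes most like the B cell profile were Bank1 (r = 0.993), Cmah (0.986), H2-Ob (0.985), Fcrl1 (0.983), Cd72 (0.980), Ccr6 (0.979), Map4k1 (0.978), Wdfy4 (0.973), Cd37 (0.972) and Ebf1 (0.972). Spearman's rho lay between 0.738 and 0.905 for these 10 genes over the 8 arrays. Among the same 5899 ranked genes, 80 had r above 0.9. Of the 10, 6 were on the lists of B cell genes described next. Bank1, a scaffold protein of B cells, had 4.84, 9.03 and 8.07 in siYAP/TAZ, against 4.86, 4.94 and 6.28 in siGFP. Ebf1, a factor that acts with PAX5 early in the B lineage, had 4.34, 8.50 and 7.99 in siYAP/TAZ, against 4.44, 4.52 and 5.67 in siGFP. Both followed the members' order in the siRNA arm, with siYAP/TAZ 2 and 3 on top and siGFP 3 next.

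**Figure D3:**
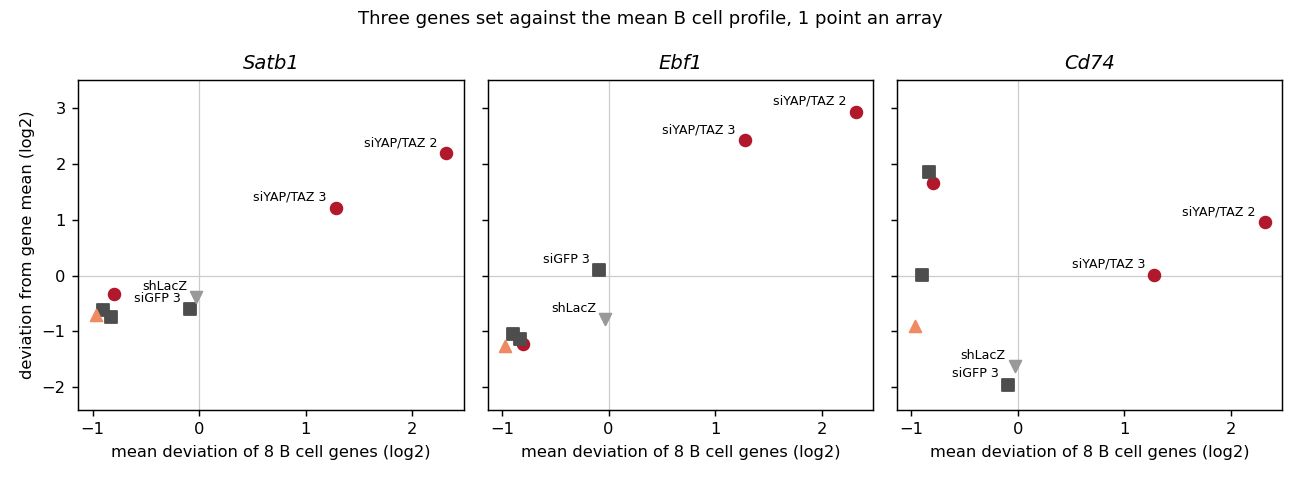
Deviation of Satb1, Ebf1 and Cd74 from their own means over the 8 arrays (vertical axis, log2) against the mean deviation of the 8 B cell members (horizontal axis, log2), 1 point an array, circles for siYAP/TAZ, squares for siGFP, an upward triangle for shYAP/TAZ and a downward triangle for shLacZ. Satb1 and Ebf1 lie high where the B cell genes do, with r of 0.962 and 0.972, while Cd74 does not follow them (r = 0.037).

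Further B cell genes were taken from 3 lists with 44 measured genes, and 0 of these passed the threshold in either direction (limma, adjusted p = 1), with 1 at an unadjusted p under 0.05. For the receptor complex and its signalling proteins, 13 of 14 had a positive siRNA difference and 1 a negative one, around a median of 0.61 on the log2 scale. Bank1 stood at 1.95 (SE 0.95), Prkcb, a kinase between the receptor and NF-kappaB, at 1.71 (SE 0.84), and Pik3ap1 at 1.20 (SE 0.57). Ighm, the heavy chain of IgM, stood at only 0.25 (SE 0.45). For B lineage transcription factors, 13 of 14 were higher and 1 lower, with a median of 0.49. Ebf1 stood at 2.07 (SE 0.96), Irf8, which myeloid cells also use, at 0.96, and Spib at 0.70. For surface, homing and survival genes, 15 of 16 were higher and 1 lower, with a median of 0.62. Fcrla stood at 1.51 (SE 0.55), with groups that did not overlap, and Cxcr5, which guides B cells into follicles, at -0.23. The medians of the 3 lists were 0.38, 0.16 and 0.23 without siYAP/TAZ 2. In siRNA pair 2, 31 of the 44 genes were at least 2-fold higher, beside 4.79% of all genes. The count was 1 of 44 in siRNA pair 1, beside 2.02% of all genes, and 12 of 44 in siRNA pair 3, beside 2.16%. In the shRNA pair 0 of 44 were at least 2-fold higher and 2 at least 2-fold lower, where 2.76% of all genes were lower.

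Genes of other B cell stages lay closer to the median of all genes. Of 6 germinal centre genes, 4 had a positive difference and 2 a negative one, with a median of 0.07 and 0 called. Fas stood at 0.35, S1pr2 at -0.33, Rgs13 at -0.27 and Gcsam at 0.17. Bcl6, the master factor of germinal centres, stood at 0.03. The Rgs13 difference came from siGFP 2, at 7.25, where the other arrays lay between 4.54 and 5.70. Of 9 plasma cell genes, 7 were higher and 2 lower, with a median of 0.12 and 0 called. Slamf7, a surface receptor of plasma cells and other lymphocytes, had 5.96, 7.95 and 7.68 in siYAP/TAZ, against 5.62, 6.76 and 6.70 in siGFP, so siYAP/TAZ 2 and 3 were highest as for the members. Jchain, which links antibody multimers, had 5.70, 7.18 and 5.79 in siYAP/TAZ, against 7.42, 6.03 and 4.88 in siGFP, so it was highest in an array where the members were low. Sdc1, which epithelium also expresses, stood at -0.64. Of 7 genes of immature B cells, 5 were higher and 2 lower, with a median of 0.35 and 0 called. That median was 0.08 without siYAP/TAZ 2.

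**Figure D4:**
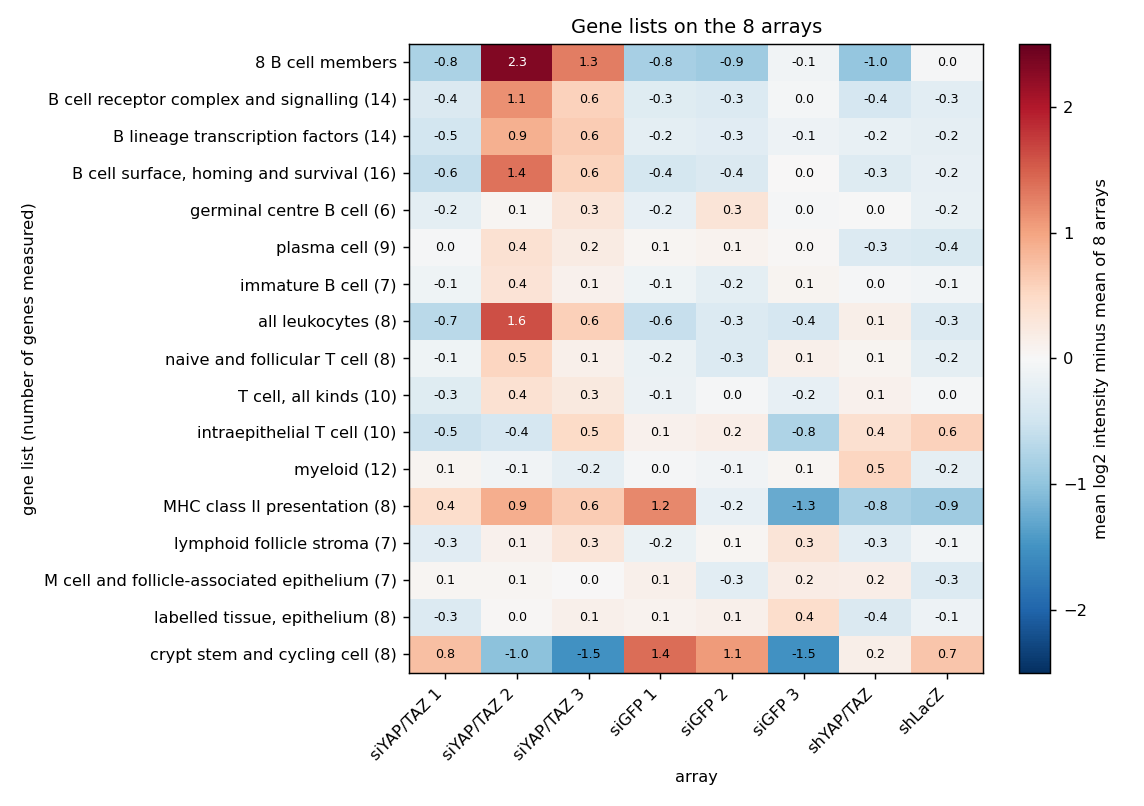
Mean log2 intensity of each gene list on each array, as the deviation from its mean over the 8 arrays, with the arrays in columns, the lists in rows (number of measured genes in brackets) and colour and printed value giving the deviation. The 8 B cell members stand 2.32 above their mean in siYAP/TAZ 2 and 1.28 above it in siYAP/TAZ 3, while the crypt list stands at -1.03 and -1.52 on the same arrays.

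Markers of other cells moved with the members to different degrees, and their part in the members' differences was not tested. Genes of all leukocytes had mean levels of 6.26, 8.53 and 7.53 in siYAP/TAZ, against 6.35, 6.58 and 6.51 in siGFP, and all 8 had a positive siRNA difference (median 1.02, 0 called by limma, 3 at an unadjusted p under 0.05). Among them, Ptprc, the leukocyte antigen CD45, had 6.34, 9.51 and 8.82 in siYAP/TAZ, against 6.73, 7.27 and 7.31 in siGFP. T cell genes of all kinds had mean levels of 5.83 to 6.52 in siYAP/TAZ, against 5.93 to 6.10 in siGFP, with 6 of 10 higher. Their mean was highest in siYAP/TAZ 2 (6.52) and siYAP/TAZ 3 (6.39). Lat, an adaptor below the T cell receptor, had 6.01, 7.08 and 7.001 in siYAP/TAZ, against 5.66, 5.18 and 5.96 in siGFP, with groups that did not overlap. Cd2 had 5.04, 7.29 and 6.34 in siYAP/TAZ, against 5.15, 5.97 and 5.76 in siGFP, while Cd3e was highest in shLacZ, at 8.25. Cd3d, a chain of the T cell receptor complex, was lowest in siYAP/TAZ 2, at 4.52. It stayed between 4.52 and 5.31 on the 8 arrays, near or under the olfactory median, so its order says little. Naive and follicular T cell genes ranged from 6.33 to 6.99 in siYAP/TAZ, against 6.10 to 6.58 in siGFP, with 7 of 8 higher. Of these, Ccr7, a homing receptor that B cells also carry, reached 9.17 in siYAP/TAZ 2.

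Genes of intraepithelial T cells had mean levels of 6.14, 6.25 and 7.16 in siYAP/TAZ, against 6.79, 6.84 and 5.90 in siGFP, with 5 of 10 higher and 5 lower. They were thus low in siYAP/TAZ 2 and did not rank the arrays as the members did. Myeloid genes ranged from 6.27 to 6.56 in siYAP/TAZ, against 6.42 to 6.55 in siGFP, with 3 of 12 higher. Genes of lymphoid follicle stroma ranged from 6.28 to 6.86 in siYAP/TAZ, against 6.39 to 6.88 in siGFP, with 2 of 7 higher. Cxcl13, the chemokine that draws B cells into follicles, had 6.38, 8.88 and 7.70 in siYAP/TAZ, against 6.41, 6.49 and 8.03 in siGFP, with 7.08 in shYAP/TAZ and 6.30 in shLacZ. Cxcl13 was thus highest in siYAP/TAZ 2 and next highest in siGFP 3 and siYAP/TAZ 3, while shLacZ had the lowest value of the 8 arrays. Genes of M cells and follicle-associated epithelium ranged from 6.77 to 6.81 in siYAP/TAZ, against 6.49 to 6.94 in siGFP, with 4 of 7 higher. Gp2, a bacterial receptor that defines M cells, lay between 4.21 and 4.93 on the 8 arrays, under the olfactory median of each, so it says little. Tnfrsf11a had 7.27, 8.63 and 8.45 in siYAP/TAZ, against 7.89, 7.33 and 8.04 in siGFP. It was thus highest in siYAP/TAZ 2 and 3, as the members were. Ccl20 was instead at its lowest in siYAP/TAZ 2, at 4.87.

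Of the MHC class II genes, which B cells express along with myeloid cells and stimulated epithelium, all 8 had a positive siRNA difference (median 0.83, 0 called). In siRNA pair 3, 7 of these 8 genes were at least 2-fold higher, beside 2.16% of all genes. The count was 3 of 8 in siRNA pair 2, beside 4.79%, and 0 of 8 in siRNA pair 1, beside 2.02%. In siRNA pair 1, 2 of the 8 were at least 2-fold lower, and the median difference was -0.31. Their mean level was lowest of the 8 arrays in siGFP 3 (6.21), the control of pair 3. siYAP/TAZ 3 (8.1) lay below siGFP 1 (8.67). Their order of arrays varied by gene. H2-Ob, a class II chaperone subunit of B cells, had 5.52, 8.32 and 7.54 in siYAP/TAZ, against 5.86, 5.60 and 6.44 in siGFP. Cd74, the invariant chain, had 11.22, 10.52 and 9.58 in siYAP/TAZ, against 11.43, 9.58 and 7.62 in siGFP. Cd74 was highest in siGFP 1 and siYAP/TAZ 1, the arrays numbered 1, in which the B cell members were low.

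Markers of the labelled tissue were bright on all arrays: Epcam, an epithelial adhesion protein, lay between 11.47 and 12.38 and Fabp2, a fatty acid carrier of enterocytes, between 11.97 and 13.18 on the 8 arrays. The mean of the 8 markers was 11.14, 11.52 and 11.62 in siYAP/TAZ, against 11.57, 11.61 and 11.93 in siGFP. Of these, 7 of 8 had a negative siRNA difference (median -0.32, 0 called), with Epcam at -0.35 (SE 0.28) and the keratin gene Krt8 at -0.30 (SE 0.28). Crypt stem and cycling cell genes had mean levels of 8.26, 6.47 and 5.98 in siYAP/TAZ, against 8.89, 8.57 and 5.98 in siGFP, with 7.65 in shYAP/TAZ and 8.19 in shLacZ. The 3 arrays siYAP/TAZ 2, siYAP/TAZ 3 and siGFP 3 were thus low in crypt genes, and the B cell members were high or intermediate on the same arrays. shLacZ had crypt genes at a high level together with intermediate B cell genes. The first principal component of all genes, with 56.8% of the variance, parted the same 3 arrays (scores of 57.5 to 64.5) from the others (-70.3 to -1.7). Whether this difference between isolates bears on the members was not tested.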

How the data were processed

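Gene expression was measured on 8 Affymetrix arrays, with RNA labelled by the WT Terminal Labeling and Hybridization Kit, per the labels' protocols. The authors deposited linear intensity values for 28853 probe sets on each array. For their background correction, summarisation and scaling, no method is given in the sources used here. Every array's lowest deposited intensity lay just above 16, so differences of dim genes may be compressed.

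The deposited values were put on the log2 scale. Array medians lay 0.32 apart, above the limit of 0.2, and the arrays were quantile normalised. Of the probe sets, 21789 named 1 gene, 1621 several and 5443 none in the platform annotation. For 21698 of them the current symbol was taken from RefSeq (GRCm38.p6) by Entrez identifier. The probe set with the highest mean stood for its gene, giving 19938 genes, and no filter on dim genes was applied. siYAP/TAZ was compared with siGFP by limma's moderated test (version 3.58.1, under R 4.3.3), tested on simulated data beforehand. Its p-values were adjusted by Benjamini and Hochberg's method across the 19938 genes, and 0.05 was the threshold. For arrays, their number limits the precision.

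The members and gene lists were chosen with earlier results of these data known. Named genes are the 9 members, genes from 17 lists (154 of 167 listed genes were used) and the 10 most like the B cell profile by Pearson's r. Up to 4 genes a list were named by the size of their siRNA difference. Ighm, Spib, Cxcr5, Bcl6, Jchain, Cd3d, Gp2 and others outside that rule were named after their values were seen. A called difference within a pair is at least 2-fold.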

Additional observations from a re-analysis of the deposited data

Results flagged for a closer look

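The siRNA and shRNA arms ran in opposite directions for 7 of the 9 members, higher in all 3 siRNA pairs and lower in the shRNA pair; the difference between arms was not tested. The shRNA difference was -1.16 for Cd79b, -1.15 for Ms4a1, -1.32 for Cd22, -0.44 for Fcer2a, -0.78 for Cr2, -0.59 for Blk and -0.33 for Satb1. The smallest siRNA difference of these genes lay between 0.04 for Ms4a1 and 0.42 for Satb1. These genes were chosen on the siRNA contrast. Of 79 genes eligible for naming, 12 that are no members also ran opposite ways in the arms. Lower in the shRNA pair were Cmah (-0.68), Wdfy4 (-0.68), Gcsam (-0.69), Fcmr (-0.44), Fcrla (-0.26), Rag1 (-0.22), H2-Aa (-0.18) and Map4k1 (-0.09). Higher in the shRNA pair, and lower in all 3 siRNA pairs, were Adgre1 (1.43), Ccl9 (0.86), Cdx2 (0.43) and Lyz2 (0.11). These differences were not tested either.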

How the results depend on the processing

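All 9 members kept a positive siRNA difference under each of the 12 alternatives, in 108 of 108 values. They were chosen on this contrast, so the tally is a description. Averaging probe sets could not change these values, because each member has 1 probe set. The replicate block could not either, because the groups are balanced. The members' median of 1.66 was 1.59 without normalisation and 1.95 with 12 subtracted from each intensity before log2. It was 1.66 with 75th percentile centring or the mean over all probe sets of a gene. Leaving out 1 array gave 0.90 (without siYAP/TAZ 2) to 2.35 (without siYAP/TAZ 1). The count of genes called by limma was 0 in 7 settings of scaling, probe set, variance prior, array weights or dim-gene filter, and the filter kept 1 member, Cd22. Leaving out 1 array gave 0 to 13 genes, with 13 without siYAP/TAZ 1. Without both arrays numbered 1, a setting chosen after the data were seen, 61 genes were called, 45 higher and 16 lower; the median was then 2.31. With the replicate block, 1 gene was called and 0 members, and the median stayed at 1.66. The labels name a control for each array, but arrays of the same number did not deviate together in every pair. Deviations from the group means correlated at 0.75 and 0.57 for numbers 1 and 3, but at -0.13 for number 2. siYAP/TAZ 2 correlated best with siGFP 3 (0.58). Without siYAP/TAZ 2 the median of the lymphoid follicle stroma list turned to 0.04, from -0.02. Signal over background limits the dim members.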
